A study of Mus musculus with 16 samples.

Results

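The 10 genes described here are targets of the transcription factor p53, most of which act in metabolism, in the restraint of mTOR signalling or in transport. The 10 are *Cpt1c*, *Tigar*, *Ddit4l*, *Ddit4*, *Sesn1*, *Sesn2*, *Phlda3*, *Abcb1b*, *Zmat3*, whose product binds RNA, and *Ei24*, whose product is needed for autophagy. Each was found once, by its symbol, in both FPKM tables (fragments per kilobase of transcript, scaled to the reads mapped in each library), so 10 of the 49452 genes listed per table are described. Some of them were chosen by their large fold changes between the groups in embryos at stage E13.5. Their E13.5 values are therefore given as a description, with no test, and tests are given for the newborn libraries (P0), which that choice by E13.5 fold changes did not use, although P0 results were known when the list was drawn up.

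RNA-Seq was done on mouse back skin in 16 libraries, 4 per group, to ask how epidermal cells respond when they lose centrioles. The P0 mutants carried K14-Cre (tg/wt), which expresses Cre recombinase from the keratin 14 promoter in stratified epithelia, and were *Sas-4* fl/fl. All 4 P0 controls were *Sas-4* fl/wt, with K14-Cre in controls 2 and 3 and without it in controls 1 and 4. At E13.5 the libraries titled mutant were tagged K14-Cre tg/wt with *Sas-4* fl/fl, and those titled control K14-Cre wt/wt with *Sas-4* fl/wt. By these tags, effects of Cre and of *Sas-4* loss cannot be told apart at this stage. No group lacks a floxed *Sas-4* allele. P0 samples were keratinocytes freed from back skin and frozen without plating, and E13.5 samples were epidermal sheets. The labels give a mixed FVB/C57BL6 strain and no further age. They number the samples but do not say that each is a separate animal, so the p-values measure the spread between these samples.

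p53 is held low in healthy cells and accumulates after DNA damage, stalled or prolonged mitosis and other stress. Besides stopping the cell cycle or starting apoptosis, it switches on genes that spare resources. Sestrins and the DDIT4 proteins restrain mTORC1, the kinase complex that drives protein synthesis and growth, and PHLDA3 restrains AKT upstream of it. TIGAR and CPT1C act in sugar and lipid metabolism. In epidermis, loss of centrioles lengthens mitosis and is known to bring up p53 through the mitotic surveillance pathway.

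*Sas-4* is listed as *Cenpj* and was read first because it checks the labels. At P0 it had 1.52, 1.41, 1.35 and 1.09 FPKM in mutants 1 to 4, against 4.35, 3.35, 3.22 and 4.29 FPKM in controls 1 to 4 (log2 fold change -1.03 with a standard error of 0.12, adjusted p = 0.000141 in limma). At E13.5 it had 9.17, 8.66, 9.02 and 8.74 FPKM in the libraries titled mutant, against 3.72, 3.85, 3.56 and 3.66 FPKM in those titled control (log2 fold change 1.08 with a standard error of 0.05, adjusted p = 1.87e-06 in limma). The targeted gene was thus lower in P0 mutants but higher in the E13.5 libraries titled mutant, against their label. The column names of the E13.5 table also give the opposite genotype for all 8 libraries. The E13.5 groups follow the titles and genotype tags throughout, although both *Cenpj* and the column names go against them. Every E13.5 direction below turns round if the column names are used.

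The deposited values hold no read numbers, so absolute depth is unknown. FPKM sums were 549463 to 557512 in the E13.5 libraries titled mutant and 546593 to 584238 in those titled control, and 637984 to 740238 in P0 mutants and 605744 to 645991 in P0 controls. Depth relative to control 1, read from low FPKM values, was 0.84 to 0.914 in the E13.5 libraries titled mutant and 0.942 to 1.03 in those titled control, and 0.948 to 1.11 in P0 mutants and 0.927 to 1.0 in P0 controls. Y-linked genes were read in P0 mutants 1, 2 and 3 and in P0 control 4, so sex is not balanced at P0. Keratinocyte markers were high, with basal markers summing to 2539 to 3053 FPKM in the E13.5 libraries titled mutant and 2564 to 3006 FPKM in those titled control.

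Promoter sequences are shown because p53 acts by binding DNA, and because they show which of these genes carry its motif next to the start of transcription. RefSeq windows (GRCm38.p6, 250 bases before to 50 after a start site) matched 9 of the 10 genes, all but *Zmat3*. The consensus p53 decamer, the 10-base unit of the p53 response element, searched without mismatch on both strands (the pattern is its own reverse complement), was found for 4 of these 9 genes, *Ddit4l*, *Abcb1b*, *Sesn1* and *Ei24*. Over all windows, 8.36% of 32851 held it, or 9.55% of 27025 genes. A search for 2 decamers up to 13 bases apart with up to 3 mismatches also matched 4 of the 9 genes, *Ddit4l*, *Abcb1b*, *Sesn1* and *Tigar*, against 15.6% of windows and 17.4% of genes. In the first 3 of these the exact decamer lies within the paired match. A match is a description of the letters and not a measured binding site.

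The 30 bases around the decamer are given 5′ to 3′ for 3 of the genes, with the decamer in capitals. That of *Abcb1b* (chr5:8797946-8797975, plus strand) starts 191 bases before the start site and overlaps an exon of *Gm5106* on the other strand. That of *Sesn1* (chr10:41887256-41887285, plus strand) lies 173 bases before the second of its 2 start sites and touches no annotated exon. That of *Ei24* (chr9:36797325-36797354, minus strand) starts 10 bases before the start site and lies in an *Ei24* exon of another transcript.
Abcb1b: gaacacgtaaAGACAAGTCTatgtaaatgt
Sesn1: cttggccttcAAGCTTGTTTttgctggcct
Ei24: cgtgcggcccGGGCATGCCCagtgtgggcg

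The whole 250 bases before the start are given for *Ddit4l* and *Cpt1c*, 2 of the genes with the largest differences at both stages, since only the first of them holds an exact decamer. The *Ddit4l* stretch (chr3:137623422-137623671, plus strand) has it 90 bases before the start, in capitals. The *Cpt1c* stretch (chr7:44974852-44975101, minus strand) has none and gave no paired match either. Neither stretch overlaps an annotated exon.
Ddit4l: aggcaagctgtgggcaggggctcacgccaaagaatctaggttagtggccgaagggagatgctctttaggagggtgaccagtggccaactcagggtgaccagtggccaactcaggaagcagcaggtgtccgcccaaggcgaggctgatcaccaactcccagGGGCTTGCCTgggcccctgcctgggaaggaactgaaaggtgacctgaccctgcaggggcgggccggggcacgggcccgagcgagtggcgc
Cpt1c: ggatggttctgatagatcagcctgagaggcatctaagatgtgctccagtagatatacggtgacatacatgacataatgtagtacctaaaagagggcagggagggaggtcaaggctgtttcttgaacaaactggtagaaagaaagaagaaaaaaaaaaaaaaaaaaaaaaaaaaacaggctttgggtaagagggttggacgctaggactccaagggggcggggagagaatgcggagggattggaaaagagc

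At P0, 7 of the 10 genes were higher in mutants than in controls (*Cpt1c*, *Ddit4l*, *Abcb1b*, *Sesn2*, *Zmat3*, *Phlda3* and *Ei24*), *Sesn1* was lower, and *Tigar* and *Ddit4* did not pass the test. Calls were made by limma on log2(FPKM + 1) with adjustment over all 13033 genes tested, of which 11.7% were higher and 30.7% lower at an adjusted p under 0.05. Over the 10 genes the log2 fold change had a median of 1.18, against -0.15 over all genes tested. The same 7 genes had every mutant library above every control library, and for *Sesn1* every mutant library lay below. Over all genes tested, 11.7% had groups that did not overlap in the higher direction and 31.8% in the lower. All 10 genes passed the filter on low values (FPKM 1 or more in 4 or more libraries) at both stages. The 8 genes called at P0 kept direction and call in each of the 8 fits that left out 1 library.

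The scale of the P0 table bears on small changes. After median-of-ratios scaling or quantile normalization the median over all genes was 0 in place of -0.15. The split of calls, 1520 higher and 3995 lower as deposited, was then 2459 higher and 2520 lower, or 2320 higher and 2480 lower. The changes of *Cpt1c*, *Ddit4l* and *Abcb1b* were 2.41 to 2.52, 2.56 to 2.70 and 2.61 to 2.69 under the other scalings.

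At E13.5, 8 of the 10 genes had every library titled mutant below every library titled control, and *Sesn1* and *Tigar* overlapped. The background was 14.6% of 12866 genes with groups that did not overlap in that direction. Over the 10 genes the log2 fold change had a median of -1.28, against 0.0 over all genes tested. These values chose some of the genes, so nothing is read from that count or from this median.

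**Figure D1:**
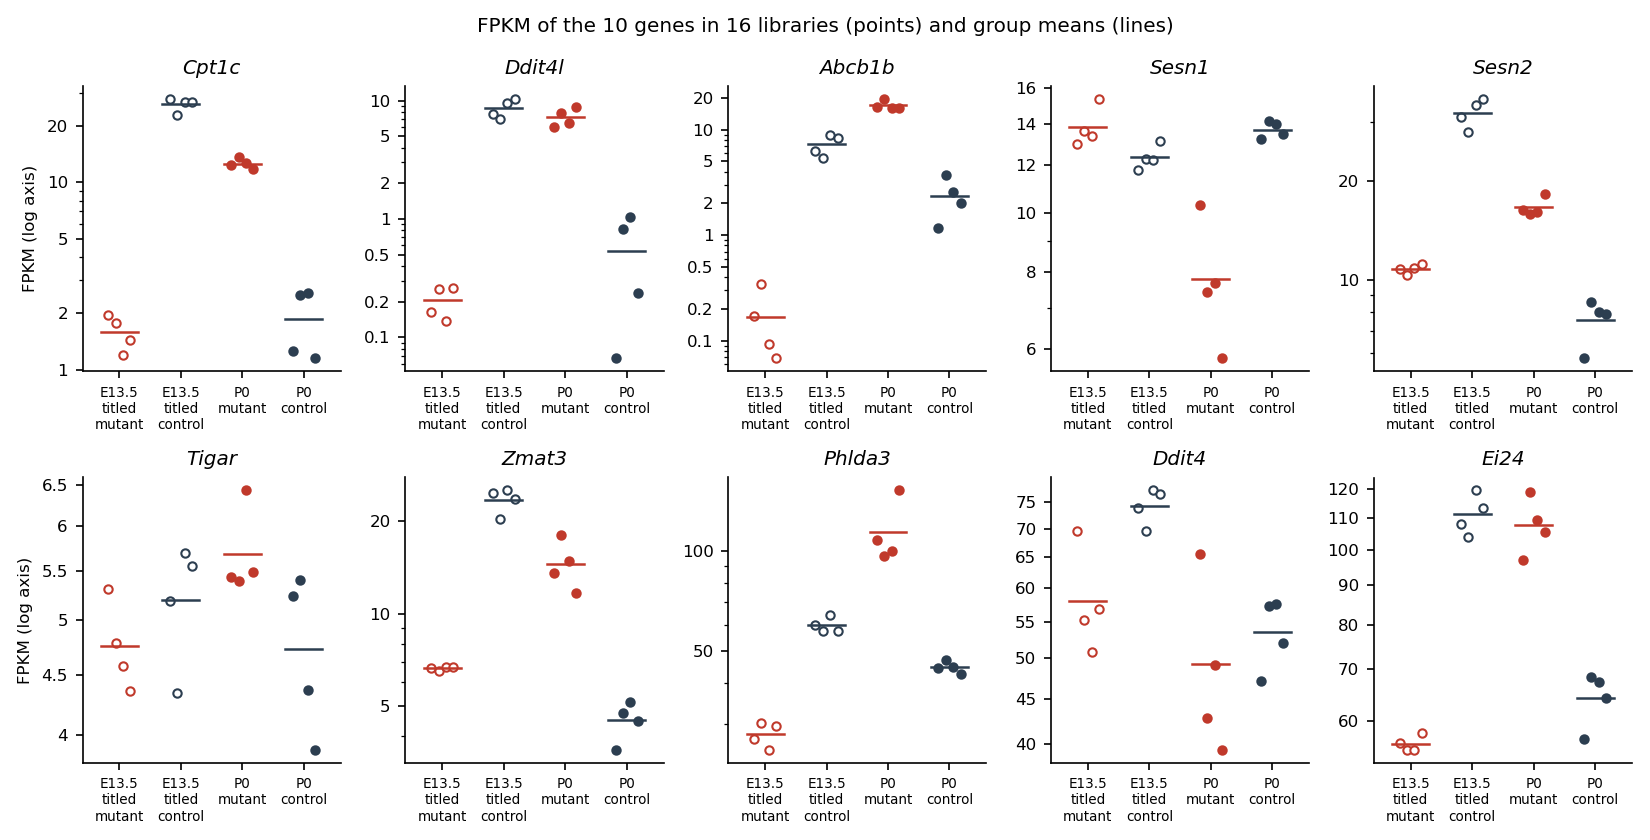
FPKM of each gene (log axis, 1 panel per gene) in the 4 groups, with 1 point per library, open at E13.5 and filled at P0, and a line at the mean of 4 libraries. For 7 genes the P0 mutants lie above the P0 controls while the E13.5 libraries titled mutant lie below those titled control; in *Sesn1* the P0 mutants are the lower group. With column names as groups the E13.5 order turns round.

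Among the inhibitors of mTORC1, *Ddit4l* (chromosome 3, 137621612 to 137628333, plus strand), which encodes a relative of DDIT4 that acts through the TSC1-TSC2 complex, had the largest ratio of means at P0. It had 5.96, 7.83, 6.4 and 8.84 FPKM in mutants 1 to 4, against 0.0665, 0.819, 1.03 and 0.238 FPKM in controls 1 to 4. Controls 2 and 3 were the higher ones and still lay far below the lowest mutant. The mean was 7.26 ± 1.32 FPKM in mutants and 0.538 ± 0.46 FPKM in controls (SD, n = 4 each), and the log2 fold change was 2.46 (standard error 0.21, 95% interval 1.98 to 2.94, limma adjusted p = 3.56e-05). With a pseudocount of 0.1 in place of 1 it was 3.89.

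In the E13.5 epidermis *Ddit4l* had 0.164, 0.254, 0.138 and 0.262 FPKM in libraries 1 to 4 titled mutant, against 7.77, 7.04, 9.46 and 10.3 FPKM in those titled control. Every library titled mutant was far below 1 FPKM. The mean was 42.3 times higher in the libraries titled control, and the log2 fold change was -2.99, or -4.85 with a pseudocount of 0.1.

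*Ddit4* (chromosome 10, 59949675 to 59951770, minus strand), the better known member of the pair and a gene that hypoxia and glucocorticoids also induce, did not share this pattern. At P0 it had 65.5, 42.8, 49.1 and 39.4 FPKM in mutants 1 to 4, against 47.2, 57.3, 57.6 and 52.0 FPKM in controls 1 to 4. Mutant 1 was the highest of the 8 libraries and the other 3 mutants overlapped or lay under the controls. The log2 fold change was -0.14 (95% interval -0.48 to 0.19, limma adjusted p = 0.474, exact permutation p = 0.429), and 0.02 after median-of-ratios scaling.

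The E13.5 libraries titled mutant had 69.56, 55.16, 50.77 and 56.84 FPKM of *Ddit4*, against 73.97, 69.6, 77.33 and 76.54 FPKM in those titled control. The nearest libraries of the groups were only 0.038 FPKM apart, so that the groups barely failed to overlap. The log2 fold change was -0.36.

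The sestrins bind the GATOR2 complex and so hold back mTORC1 when leucine is scarce, and the 2 members went in opposite directions at P0. *Sesn2* (chromosome 4, 132492032 to 132510501, minus strand) had 16.3, 15.8, 16.1 and 18.2 FPKM in mutants 1 to 4, against 5.8, 8.61, 8.0 and 7.9 FPKM in controls 1 to 4. The mutants were nearly level and all above the controls, at a ratio of means of 2.19 and a log2 fold change of 1.05 (standard error 0.12, 95% interval 0.79 to 1.31, limma adjusted p = 0.000136).

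*Sesn1* (chromosome 10, 41809935 to 41908424, plus strand) had 10.29, 7.424, 7.682 and 5.786 FPKM in P0 mutants 1 to 4, against 13.22, 14.12, 13.97 and 13.48 FPKM in controls 1 to 4. The controls were tightly grouped and the mutants were spread below them. It fell by 0.76 on the log2 scale (standard error 0.14, 95% interval -1.08 to -0.45, limma adjusted p = 0.00221). Beside the median of -0.15 over all genes the fall is smaller, and it was -0.61 and -0.58 under the other scalings. It was the one gene of the 10 with an exact decamer whose level was lower in P0 mutants.

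At E13.5 *Sesn2* had 10.8, 10.3, 10.9 and 11.2 FPKM in the libraries titled mutant, against 31.2, 28.1, 33.9 and 35.3 FPKM in those titled control, a log2 fold change of -1.48. *Sesn1* had 12.98, 13.62, 13.37 and 15.37 FPKM in the libraries titled mutant, against 11.75, 12.26, 12.19 and 13.14 FPKM in those titled control. Its groups overlapped by a single pair of libraries and the log2 fold change was 0.15.

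*Phlda3* (chromosome 1, 135766119 to 135769136, plus strand), whose product is a pleckstrin homology domain that competes with AKT for membrane lipids, was the most abundant of the 10 in P0 mutants. It had 108, 96.9, 100 and 153 FPKM in mutants 1 to 4, against 44.3, 46.9, 44.8 and 42.5 FPKM in controls 1 to 4. Mutant 4 stood above the other mutants, and the controls were close to each other. The difference on the log2 scale was 1.32 (standard error 0.13, 95% interval 1.01 to 1.62, limma adjusted p = 8.42e-05). At E13.5 it had 27.0, 30.3, 25.1 and 29.6 FPKM in the libraries titled mutant, against 60.0, 57.2, 64 and 57.4 FPKM in those titled control, a log2 fold change of -1.07.

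**Figure D2:**
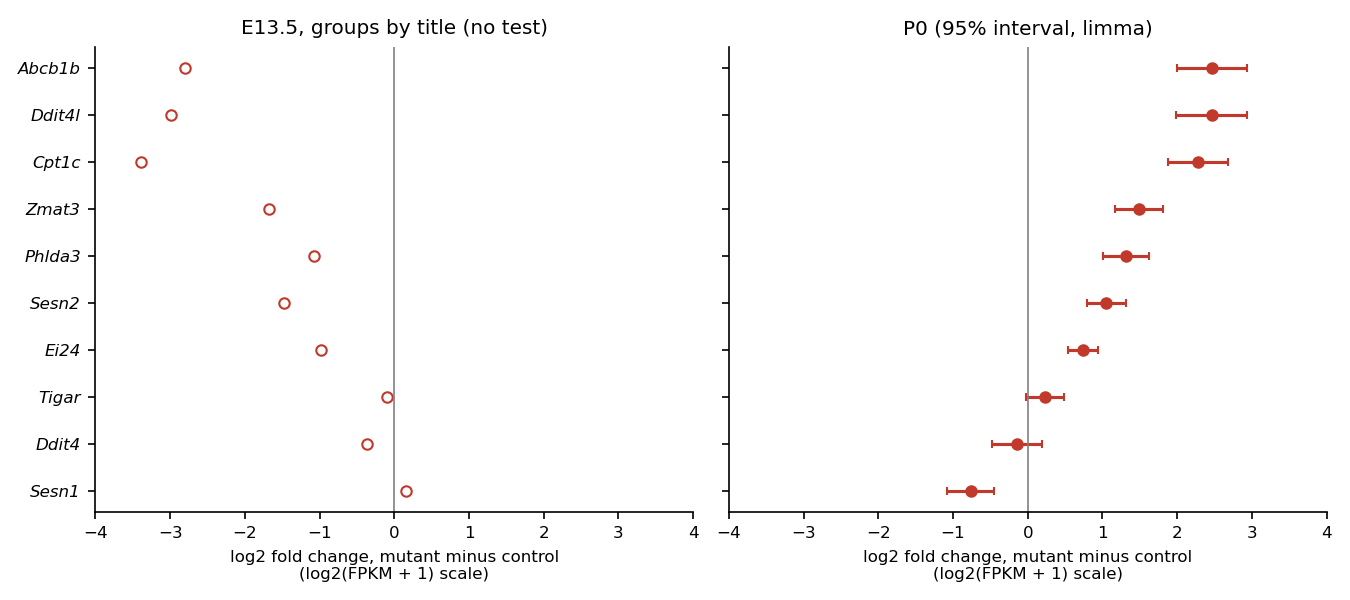
Log2 fold change of each gene on the log2(FPKM + 1) scale, mutant minus control, at E13.5 with groups by title (open points, no test) and at P0 (filled points with 95% limma intervals). At P0 the intervals of *Abcb1b*, *Ddit4l*, *Cpt1c*, *Zmat3*, *Phlda3*, *Sesn2* and *Ei24* lie above 0, that of *Sesn1* lies below 0, and those of *Tigar* and *Ddit4* include 0, while the E13.5 signs turn round with the column names as groups.

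Of the 2 metabolic genes, *Cpt1c* (chromosome 7, 44959372 to 44974851, minus strand) encodes a carnitine palmitoyltransferase 1 of the endoplasmic reticulum that is best known from neurons and has little transferase activity. It had 12.3, 13.6, 12.7 and 11.8 FPKM in P0 mutants 1 to 4, against 1.26, 2.5, 2.56 and 1.15 FPKM in controls 1 to 4. The mutants were close together, and controls 2 and 3 had more than controls 1 and 4. The mean was 12.6 ± 0.763 FPKM in mutants and 1.87 ± 0.768 FPKM in controls (SD, n = 4 each), with a log2 fold change of 2.28 (standard error 0.18, 95% interval 1.88 to 2.68, limma adjusted p = 1.96e-05).

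At E13.5 *Cpt1c* had 1.96, 1.78, 1.2 and 1.44 FPKM in the libraries titled mutant, against 27.9, 22.8, 26.7 and 27.0 FPKM in those titled control. Its log2 fold change was -3.39, or -3.97 with a pseudocount of 0.1. Because *Cpt1c* is a neuronal gene, the neuron markers were read beside it. *Snap25*, *Syt1*, *Elavl3*, *Elavl4* and *Stmn2* were below 1 FPKM in all 16 libraries. The 6 neuron markers in the tables summed to 14.8 to 32.3 FPKM in P0 mutants and 3.67 to 8.34 FPKM in P0 controls, where *Map2* alone was tested and was higher, and to 2.01 to 4.07 FPKM in the E13.5 libraries titled mutant and 2.9 to 3.63 FPKM in those titled control. Their part in the result was not tested. Without strand information, reads of *Cpt1c* and of *6530437J22Rik* on the other strand cannot be told apart over 6.53% of its exon bases.

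*Tigar* (chromosome 6, 127085116 to 127109557, minus strand) encodes a phosphatase that lowers fructose bisphosphate and so turns glucose towards the pentose phosphate pathway. At P0 it had 5.43, 5.39, 6.43 and 5.49 FPKM in mutants 1 to 4, against 5.24, 5.41, 4.37 and 3.89 FPKM in controls 1 to 4. The groups overlapped by the lowest mutant and the highest control only. The log2 fold change was 0.23 (95% interval -0.02 to 0.48, limma adjusted p = 0.13, exact permutation p = 0.0571). With median-of-ratios scaling it was 0.37 (limma adjusted p = 0.0249), with quantile normalization 0.48 (limma adjusted p = 0.00966) and with array weights 0.31 (limma adjusted p = 0.0285), each past the threshold. At E13.5 the libraries titled mutant had 5.31, 4.79, 4.58 and 4.36 FPKM and those titled control 5.19, 4.34, 5.7 and 5.56 FPKM, which overlapped widely (log2 fold change -0.10).

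The transporter *Abcb1b* (chromosome 5, 8798147 to 8866315, plus strand) encodes 1 of the mouse P-glycoproteins, ATP-driven pumps that export drugs and lipophilic compounds. It had 16.3, 19.6, 16.1 and 16.1 FPKM in P0 mutants 1 to 4, against 1.17, 3.71, 2.57 and 2.01 FPKM in controls 1 to 4. The mutants were nearly level apart from mutant 2, while the controls ranged more widely in ratio. On the log2 scale the difference was 2.47 (standard error 0.21, 95% interval 2.0 to 2.94, limma adjusted p = 2.87e-05) and the ratio of means 7.2. At E13.5 it had 0.172, 0.344, 0.093 and 0.0681 FPKM in the libraries titled mutant, against 6.34, 5.42, 8.94 and 8.25 FPKM in those titled control. The log2 fold change of -2.80 became -4.85 with a pseudocount of 0.1.

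Of the 50-base stretches of *Abcb1b* transcripts, 12.8% also occur in other genes, mainly in its paralog *Abcb1a*. *Abcb1a* itself was listed at 0.0216 ± 0.0138 FPKM in P0 mutants and 0.0165 ± 0.017 FPKM in P0 controls (SD, n = 4 each), and at no more than 0.0377 FPKM in any P0 library. *Abcb4*, the next gene of the family, was listed at no more than 0.0937 FPKM in P0 mutants and 0.225 FPKM in P0 controls.

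*Zmat3* (chromosome 3, 32334792 to 32366014, minus strand) encodes a zinc finger protein that binds RNA and alters splicing and stability of its targets. It had 13.6, 18.1, 14.9 and 11.7 FPKM in P0 mutants 1 to 4, against 3.61, 4.75, 5.16 and 4.49 FPKM in controls 1 to 4. The lowest mutant was far above the highest control, and the log2 fold change was 1.49 (standard error 0.14, 95% interval 1.17 to 1.81, limma adjusted p = 5.44e-05). At E13.5 it had 6.65, 6.52, 6.72 and 6.69 FPKM in the libraries titled mutant, against 24.8, 20.4, 25.2 and 23.7 FPKM in those titled control, a log2 fold change of -1.68.

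*Ei24* (chromosome 9, 36779159 to 36797393, minus strand) encodes a membrane protein of the endoplasmic reticulum needed for autophagy. It had 97.0, 119, 110 and 106 FPKM in P0 mutants 1 to 4, against 56.8, 68.3, 67.3 and 64.1 FPKM in controls 1 to 4. It was abundant in both groups and had the smallest of the 7 rises, with a log2 fold change of 0.74 (standard error 0.09, 95% interval 0.54 to 0.94, limma adjusted p = 0.000194). At E13.5 it had 56.2, 55.0, 55.0 and 57.8 FPKM in the libraries titled mutant, against 108, 104, 120 and 113 FPKM in those titled control, a log2 fold change of -0.98. *Gm26787* on the other strand shares 6.66% of its exon bases.

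For each of the 8 genes called at P0 the exact two-sided permutation test over the 8 libraries gave p = 0.0286, the smallest that 4 against 4 can give. The 7 genes that were higher in P0 mutants all lay lower in the E13.5 set titled mutant, with groups that did not overlap at either stage. Of all genes tested, 11.7% had such groups in the higher direction at P0 and 14.6% in the lower direction at E13.5. Whether the 2 stages differ was not tested, because the E13.5 contrast took part in choosing the genes. With the column names as groups, the same 7 genes were on the higher side in the mutant columns at both stages.

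In level, FPKM being per length, the order among the 10 genes was not the same in all groups. In P0 mutants it ran from *Phlda3* (114 FPKM) and *Ei24* (108 FPKM), which overlapped, over *Ddit4* (49.2 FPKM), *Abcb1b* (17.0 FPKM), *Sesn2* (16.6 FPKM), *Zmat3* (14.6 FPKM) and *Cpt1c* (12.6 FPKM) to *Sesn1* (7.79 FPKM), *Ddit4l* (7.26 FPKM) and *Tigar* (5.69 FPKM). From *Abcb1b* to *Cpt1c* and from *Sesn1* to *Tigar*, neighbours in this order overlapped. In P0 controls *Ei24* came first (64.1 FPKM, overlapping *Ddit4* at 53.5 FPKM), and *Abcb1b* (2.36 FPKM), *Cpt1c* (1.87 FPKM) and *Ddit4l* (0.538 FPKM) came last. The 3 genes with the largest rises were those with the lowest level in controls.

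Among the P0 controls, those with K14-Cre stood above those without it for 9 of the 10 genes, with *Tigar* as the exception. Of all genes tested, 20.5% had both controls with K14-Cre above both without, and 18.7% below. *Ddit4l* had 0.819 and 1.03 FPKM in controls 2 and 3 with K14-Cre, against 0.0665 and 0.238 FPKM in controls 1 and 4 without it, a ratio of means of 6.08. The ratio was 2.1 for *Cpt1c*, 1.97 for *Abcb1b* and 1.05 to 1.22 for the other 6. These 2 libraries against 2 are given as a description and were not tested. All 4 of these controls are *Sas-4* fl/wt, so Cre itself and the deletion of 1 *Sas-4* allele cannot be told apart, and control 4 alone of them is male. Controls 2 and 3 carry the label numbers 70 and 71, and controls 1 and 4 carry 64 and 77. Mutants 1 to 4 carry 63, 68, 69 and 76. What these numbers stand for is not given. Against the 2 controls with K14-Cre only, the same 8 genes passed the test, with log2 fold changes of 1.94 for *Cpt1c*, 2.09 for *Ddit4l*, 2.13 for *Abcb1b* and -0.80 for *Sesn1*.

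**Figure D3:**
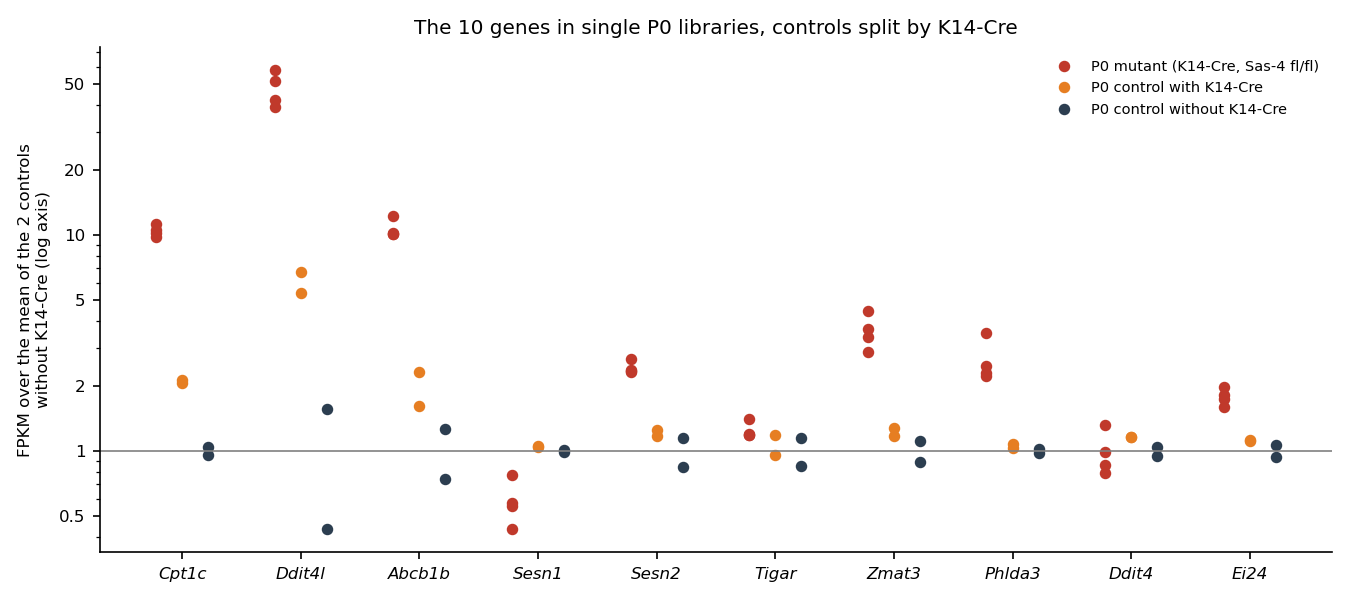
FPKM of each gene in single P0 libraries, divided by the mean of the 2 controls without K14-Cre (log axis), for 4 mutants, 2 controls with K14-Cre and 2 controls without it. The controls with K14-Cre lie above those without for all genes except *Tigar*, and for *Ddit4l* their mean is 6.08 times higher.

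At E13.5 the libraries titled control 3 and 4 carry the label number 67 and the other 6 libraries carry another one. What this number stands for is not given. The titled controls with number 67 were above the other titled controls for 6 of the 10 genes (*Ddit4l*, *Abcb1b*, *Sesn2*, *Tigar*, *Ddit4* and *Ei24*), and 4 overlapped. Over all genes tested, 23.2% were above and 18.7% below. Without the 2 libraries numbered 67, the log2 fold changes of *Ddit4l*, *Abcb1b*, *Sesn2* and *Ei24* were -2.80, -2.56, -1.37 and -0.91.

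Markers of other cell types moved with the P0 groups, and their part in the results was not tested. In bulk samples fewer cells of a type and less RNA per cell cannot be told apart. Of the myeloid and Langerhans cell markers, 5 of 5 tested were lower, and the list summed to 25.3 to 29.8 FPKM in mutants and 110 to 160 FPKM in controls. Hair follicle markers were lower for 8 of 9 and higher for 1, with sums of 2775 to 3861 FPKM in mutants and 2041 to 2764 FPKM in controls, and fibroblast markers lower for 3 of 4, with sums of 80.1 to 164 FPKM in mutants and 179 to 273 FPKM in controls. Melanocyte markers were higher for 3 of 6, with sums of 294 to 639 FPKM in mutants and 204 to 274 FPKM in controls. Basal keratinocyte markers summed to 22010 to 27541 FPKM in mutants and 17941 to 20934 FPKM in controls, and suprabasal ones to 21782 to 31542 FPKM in mutants and 14946 to 20615 FPKM in controls. At E13.5 melanocyte markers were lower for 3 of 5, with sums of 36.6 to 37.8 FPKM in the libraries titled mutant and 49.7 to 62.0 FPKM in those titled control. *Krt25* and *Cd207* were at 0 in every E13.5 library, and the 6 endothelial markers were below 1 FPKM.

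The wider p53 response was read from 28 other p53 targets, of which 27 were tested. At P0, 19 were higher in mutants, 4 lower and 4 did not pass, with a median of 0.81 on the log2 scale against -0.15 over all genes. Of all genes tested, 11.7% were higher and 30.7% lower. *Aen*, an exonuclease of apoptotic cells, had 66.1 ± 2.09 FPKM in mutants and 30.9 ± 3.59 FPKM in controls (SD, n = 4 each, limma adjusted p = 2.45e-05). *Sfn*, the 14-3-3 protein of epithelia, rose by 1.31 and *Psrc1*, a spindle protein, by 1.37 on the log2 scale. The 4 that fell were the DNA repair genes *Ddb2* and *Xpc*, the ribonucleotide reductase subunit *Rrm2b* and the adenylate kinase *Ak1*, named here after their values were seen. The counts were 20 higher and 2 lower under median-of-ratios scaling, 20 and 1 under quantile normalization, and 19 and 1 against the K14-Cre controls only.

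At E13.5, 21 of the 27 were lower in the libraries titled mutant against 13.4% of all genes tested, and 1 was higher, against 11.8%. The 1 that was higher was *Ddb2*, by 0.3 on the log2 scale, named after its values were seen, and it did not pass without the libraries numbered 67 (limma adjusted p = 0.0639). *Aen* had 48.0 ± 1.64 FPKM in the libraries titled mutant and 101 ± 8.85 FPKM in those titled control (SD, n = 4 each, limma adjusted p = 7.27e-06), and *Psrc1* differed by -1.16 on the log2 scale. *Sfn* did not pass (log2 fold change -0.12, limma adjusted p = 0.343). Without the libraries numbered 67, 21 were still lower. Among the P0 controls, 17 of these 27 genes were higher in the 2 libraries with K14-Cre than in the 2 without, 1 was lower and 9 overlapped. Of all genes tested, 20.5% had both libraries with K14-Cre above both without, and 18.7% below. This split was not tested.

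Of 10 paralogs of these genes tested at P0, 2 were higher, 2 lower and 6 did not pass. Beside this and the list counts below, 11.7% of all genes tested at P0 were higher and 30.7% lower. At E13.5, by title, the shares were 11.8% and 13.4%. *Phlda1* (16.3 ± 2.64 FPKM in mutants and 11.4 ± 1.94 FPKM in controls, SD, n = 4 each) and *Phlda2* (11.4 ± 1.25 FPKM in mutants and 6.89 ± 1.63 FPKM in controls), which carry the same domain as *Phlda3*, were higher, but neither passed against the controls with K14-Cre only (limma adjusted p = 0.225 and 0.0629). *Sesn3*, the third sestrin, was lower at P0 with 2.97 ± 0.675 FPKM in mutants and 5.97 ± 0.485 FPKM in controls (SD, n = 4 each, limma adjusted p = 0.00126). *Pfkfb4*, a relative of *Tigar* in the control of fructose bisphosphate, fell by 0.51 and did not pass under quantile normalization (limma adjusted p = 0.144). *Cpt1a*, the liver form of the carnitine palmitoyltransferase and the most abundant of the family in P0 mutants, had 27.1 ± 7.07 FPKM in mutants and 28.2 ± 3.15 FPKM in controls (SD, n = 4 each, limma adjusted p = 0.714). *Cpt1b*, the muscle form, had no more than 1.51 FPKM in any P0 library and was not tested there. At E13.5, 1 of 11 paralogs was higher, *Sesn3*, which did not pass without the libraries numbered 67.

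Around *Cpt1c*, 1 of 21 genes of the carnitine shuttle and fatty acid oxidation was higher at P0 and 7 lower. The other 13 did not pass, and the median was -0.15 as for all genes, of which 30.7% were lower. *Echs1*, a hydratase of the oxidation spiral, had 46.5 ± 2.93 FPKM in mutants and 72.7 ± 6.8 FPKM in controls (SD, n = 4 each, limma adjusted p = 0.000441). The short-chain dehydrogenase *Acads* and the carnitine transporter *Slc22a5* both fell by 0.56, of which *Slc22a5* did not pass under quantile normalization or with the K14-Cre controls only. At E13.5, 1 of 21 was lower and the other 20 did not pass.

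Around the sestrins, 5 of 20 genes of the GATOR and Rag system were lower at P0, against 30.7% of all genes tested. This system passes amino acid levels to mTORC1, and the other 15 genes did not pass the test. Median-of-ratios scaling gave 2 higher and 2 lower, and quantile normalization 1 higher and 3 lower. *Rragd*, a Rag GTPase, had 2.18 ± 0.736 FPKM in mutants and 5.13 ± 0.411 FPKM in controls (SD, n = 4 each, limma adjusted p = 0.00209). *Nprl3*, a subunit of GATOR1, fell by 0.37 and passed under neither of the other scalings. At E13.5, 3 of 22 were higher and 2 lower.

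Among 26 genes of AKT, AMPK, TSC and mTOR tested at P0, 3 were higher and 4 lower, against 6 and 3 under median-of-ratios scaling and 4 and 3 under quantile normalization. *Eif4ebp1*, the translation repressor that mTORC1 inactivates, had 46.7 ± 3.74 FPKM in mutants and 26.2 ± 1.93 FPKM in controls (SD, n = 4 each, limma adjusted p = 8.95e-05). *Rps6kb2*, a kinase of ribosomal protein S6, rose by 0.84, and *Prkag2*, a regulatory subunit of AMPK, fell by 0.54. At E13.5, 1 of 27 was higher and 4 lower, among them *Eif4ebp1* (log2 fold change -0.56, limma adjusted p = 0.00881). All 4 lower calls were lost without the libraries numbered 67. The 1 that was higher was *Pdk1* (log2 fold change 0.47), a pyruvate dehydrogenase kinase. *Pdk1* is also counted among the hypoxia targets and is not itself a part of AKT or mTOR signalling. The opposite signs of *Eif4ebp1* at the 2 stages rest on the E13.5 titles and turn into the same sign with the column names, and the difference was not tested.

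Around *Tigar*, 3 of 14 genes of the fructose bisphosphate switch and the pentose phosphate pathway were higher at P0 and 4 lower. The platelet and muscle forms of phosphofructokinase moved oppositely. *Pfkp* had 24.9 ± 2.68 FPKM in mutants and 12.9 ± 0.798 FPKM in controls, and *Pfkm* 3.88 ± 0.652 FPKM in mutants and 8.5 ± 0.345 FPKM in controls (SD, n = 4 each, limma adjusted p = 0.0001 and 0.000145). *Tkt*, the transketolase, fell by 0.62. At E13.5, 2 of 14 were higher, *Pfkm* and *Tkt*, and 3 lower, and *Tkt* did not pass without the libraries numbered 67.

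Of 6 ABC transporters of drugs, bile salts and conjugates tested at P0, 2 were higher and 1 lower. *Abcg2*, another drug pump, had 35.1 ± 6.15 FPKM in mutants and 19.7 ± 2.19 FPKM in controls (SD, n = 4 each, limma adjusted p = 0.00114). *Abcc3* rose by 0.93 and *Abcc5* fell by 0.62. At E13.5, 2 of 5 were lower, *Abcg2* (log2 fold change -0.52) and *Abcc5* (-0.39), and neither passed without the libraries numbered 67.

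Of 27 genes of the autophagy machinery, which the sestrins and *Ei24* touch on, 10 were lower at P0 and the other 17 did not pass. Of all genes tested, 30.7% were lower. Under either of the other scalings 4 of the 27 were higher and 6 lower. *Map1lc3a*, an LC3 protein of the autophagosome membrane, had 26.3 ± 2.18 FPKM in mutants and 49.1 ± 4.42 FPKM in controls (SD, n = 4 each, limma adjusted p = 9.41e-05). *Atg12* fell by 0.56 and *Wipi1* by 0.73. At E13.5, 3 were higher and 2 lower.

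Some of the 10 genes answer to other stress factors as well, so lists of those were read beside them. Of 16 ATF4 targets tested at P0, 6 were higher and 4 lower, and 2 were higher and 4 lower against the K14-Cre controls only. *Asns*, asparagine synthetase, had 56.1 ± 2.89 FPKM in mutants and 34.9 ± 3.34 FPKM in controls (SD, n = 4 each, limma adjusted p = 0.000255), while *Ddit3* fell by 0.53 and *Pycr1* by 0.61. Of 7 glucocorticoid targets 3 were higher (*Per1*, *Fkbp5* and *Zbtb16*, by 1.06, 0.81 and 1.14) and 1 lower, and these 3 did not pass against the K14-Cre controls only (limma adjusted p = 0.12, 0.219 and 0.232). Of 10 hypoxia targets 3 were higher and 2 lower. These counts were 5 and 1 under median-of-ratios scaling, 4 and 1 under quantile normalization, and 1 and 2 against the K14-Cre controls only. *Adm*, adrenomedullin, had 8.68 ± 0.163 FPKM in mutants and 1.09 ± 0.745 FPKM in controls (SD, n = 4 each, limma adjusted p = 3.65e-05), *Egln3* rose by 0.91, which did not pass against the K14-Cre controls only, and *P4ha1* fell by 0.51.

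At E13.5, hypoxia targets were higher for 7 of 9 in the libraries titled mutant and the other 2 did not pass, with a median of 0.47 on the log2 scale, and 4 were still higher without the libraries numbered 67. *P4ha1*, a collagen hydroxylase, had 29.7 ± 2.92 FPKM in the libraries titled mutant and 25.0 ± 0.669 FPKM in those titled control (SD, n = 4 each, limma adjusted p = 0.0259), and did not pass without the libraries numbered 67. It had the smallest log2 fold change of the 7, at 0.24, and *Ndrg1* the largest, at 0.95 (limma adjusted p = 0.000693). *Ddit4*, which hypoxia induces, stood at -0.36 with all E13.5 libraries. ATF4 targets were higher for 1 of 13 and lower for 2, and glucocorticoid targets higher for 1 of 5 and lower for 1.

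Other list counts also depended on single sets of libraries. Against the K14-Cre controls only, P0 calls were 3 lower in the carnitine list, 3 lower in the GATOR list, 2 higher and 3 lower in the AKT list, 1 higher and 4 lower in the fructose list and 4 lower in the autophagy list. Without the libraries numbered 67, E13.5 calls were 2 higher in the GATOR list, 1 higher in the AKT list, 1 higher and 1 lower in the fructose list, 1 higher in the autophagy list, 1 higher and 1 lower in the ATF4 list and 1 lower in the glucocorticoid list. Both fits hold 6 libraries in place of 8.

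**Figure D4:**
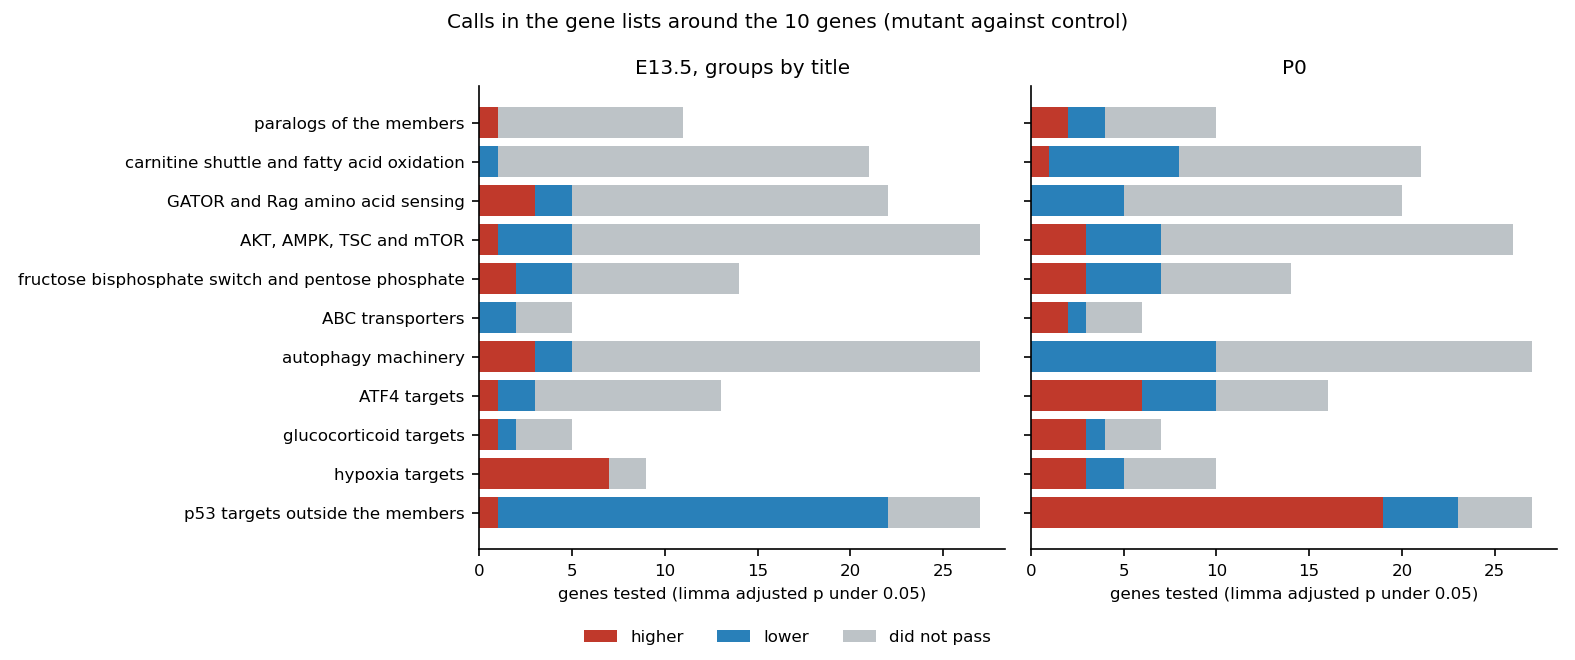
Number of genes tested in each of 11 lists (bars) that were higher, lower or did not pass limma at an adjusted p of 0.05, mutant against control, at E13.5 by title and at P0. Other p53 targets are mostly lower at E13.5 (21 of 27) and mostly higher at P0 (19 of 27), and hypoxia targets are higher for 7 of 9 at E13.5, where higher and lower change places with the column names as groups.

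The genes most like each of the 10 were named by Pearson's r of log2(FPKM + 1) over 16 libraries, centred within each stage, among 11857 genes tested at both stages. These libraries share their groups, so a high r says mainly that both genes differ between the same groups in the same directions, and part of it comes from the contrast that chose the genes. *Cpt1c* was most like *Def6* and *Ccng1* (r = 0.993 each), *Ddit4l* like *Tnfrsf10b* (0.996) and *Abcb1b* (0.992), *Abcb1b* like *Ces2e* (0.992), *Sesn2* like *Ddit4l* (0.99) and *Apaf1* (0.988), *Zmat3* like *Tbc1d2* (0.991), *Phlda3* like *Wipf3* (0.986) and *Ei24* like *Slc19a2* (0.992). *Tigar* and *Ddit4* had no close match, with the highest r at 0.769 for *Anxa3* and 0.863 for *Galnt10*. *Sesn1* was most like *Hip1* (0.973).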

How the data were processed

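Total RNA of 16 libraries was sequenced, and the authors computed FPKM in their QuickNGS pipeline and deposited 1 table per stage, each with 49452 genes (20695 with a symbol, 28503 more named from a gene table). The submitters' processing notes name mm10, bcl2fastq 2.17.1.14 and 2.18.0.12 and FastQC 0.11.5. The aligner and the strand setting are not given in the sources used here. Because FPKM carry no read numbers, no count test was run, and levels are not compared across the separately normalized stages.

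Groups followed the titles and genotype tags. Within each stage, genes reaching FPKM 1 in 4 or more of the 8 libraries were tested on log2(FPKM + 1), a scale that understates changes of low genes, with limma 3.58.1 (R 4.3.3, mean trend, two-sided, Benjamini-Hochberg over all genes, threshold 0.05). For single genes the 35 divisions of 4 against 4 libraries gave an exact permutation p. The fit was tested on simulated data. Tables and figures were made with Python 3.11.15, pandas 2.3.3, numpy 2.4.6, scipy 1.17.1 and matplotlib 3.10.9. Promoters came from RefSeq, and exons from GENCODE on GRCm38, which has the coordinates of mm10.

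The 10 genes and the 11 gene lists were chosen with earlier results of these data known. From each list up to 3 genes with the smallest P0 adjusted p are named, plus near paralogs, and genes outside this rule were named after their values were seen. *Castor1*, *Castor2*, *Map1lc3b*, *Slc7a5*, *Ero1a*, *Tubb3* and *Acta1* were not analysed here. The fits were repeated with another filter (none, or mean FPKM 5 or more), another scaling (median-of-ratios or quantile), a pseudocount of 0.1, array weights, a constant prior, a replicate block, sex as a term (P0), the K14-Cre controls only (P0), the column names as groups (E13.5), no libraries numbered 67 (E13.5), and each library left out.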

Additional observations from a re-analysis of the deposited data

Results flagged for a closer look

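In 2 of the 40 groups of 4 libraries examined (10 genes, 4 groups), 1 library stood apart from the other 3 by Dixon's ratio; chance gives about 1 in 20. *Abcb1b* had 19.6 FPKM in 1 P0 mutant library, with the next at 16.3 FPKM (ratio 0.931). *Tigar* had 6.43 FPKM in 1 P0 mutant library, with the next at 5.49 FPKM (ratio 0.907).

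For 7 genes the groups did not overlap at either stage and lay in opposite directions. Over all genes tested, 14.6% had groups that did not overlap in the lower direction at E13.5, and 11.7% in the higher direction at P0. The share with both was not counted, and the E13.5 contrast took part in choosing the genes. The log2 fold changes at E13.5 by title and at P0 were -3.39 and 2.28 for *Cpt1c*, -2.99 and 2.46 for *Ddit4l*, -2.8 and 2.47 for *Abcb1b*, -1.48 and 1.05 for *Sesn2*, -1.68 and 1.49 for *Zmat3*, -1.07 and 1.32 for *Phlda3* and -0.98 and 0.74 for *Ei24*. The difference between the stages was not tested. The sign at E13.5 rests on the titles, which the column names and the level of *Cenpj* go against.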

How the results depend on the processing

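With the E13.5 libraries grouped by column name, the log2 fold changes reversed to 3.39 for *Cpt1c*, 2.99 for *Ddit4l*, 2.80 for *Abcb1b*, -0.15 for *Sesn1*, 1.48 for *Sesn2*, 0.10 for *Tigar*, 1.68 for *Zmat3*, 1.07 for *Phlda3*, 0.36 for *Ddit4* and 0.98 for *Ei24*, and to -1.08 for *Cenpj*, which follows from the exchange of groups. *Ddit4* at P0 was 0.02 after median-of-ratios scaling; the cause was not tested. Without the libraries numbered 67, 1267 genes passed at E13.5 in place of 3243, and 33 list genes in place of 56. With the K14-Cre controls only, 3002 genes passed at P0 in place of 5515, and 51 list genes in place of 83; both of these fits hold 6 libraries in place of 8. Leaving out each library in turn gave 2196 to 3283 genes at E13.5 and 4401 to 6451 at P0. The members past the threshold at P0 numbered 8, with 7 after the filter on a mean FPKM of at least 5, which leaves out *Ddit4l*, and 9 under both scalings and array weights, which add *Tigar*. Genes higher at P0 numbered 829 with the K14-Cre controls only, and lower ones 2173, and 2478 were lower with the filter on a mean FPKM of at least 5. The replicate block gave 2766 genes at E13.5, 5130 at P0 and the same 8 members. The correlations of deviations within a number ran from -0.014 to 0.068 at E13.5 and from -0.024 to 0.111 at P0. These low values show no clear pairing by number, but 4 libraries per group cannot exclude one. The 8 members called at P0 kept their direction and call in every alternative that tested them, the highest adjusted p being 0.0277 for *Sesn1*. The unknown read depth limits the low values of *Ddit4l* and *Abcb1b*.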
